A study of Homo sapiens with 156 samples.

Results

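Immune checkpoint ligands are surface or secreted proteins that a cell shows to T cells, natural killer cells or macrophages to raise or lower their attack. Here 10 genes for such ligands or their receptors were followed in leukemia cells. They were CD274 (PD-L1), PDCD1LG2 (PD-L2), CD80, CD86, ICOSLG, LGALS9 (galectin-9), HAVCR2 (TIM-3), PVR (CD155), CD47 and SIRPA. HAVCR2 and SIRPA are receptors, and the others are ligands. All 10 were chosen by name and found, each as 1 gene, among the 59939 genes of the deposited tables. RNA was sequenced in bulk from MV411, THP1 and NOMO1, 3 established human lines of acute myeloid leukemia that all carry a rearranged KMT2A gene. The treated groups were GSK032 (GSK3685032), an inhibitor of the DNA methyltransferase DNMT1, and DAC, known as decitabine, a nucleoside that is built into DNA and traps methyltransferases there. Each compound had a time course of days 1, 2, 4 and 6 with 400 nM, and a dose series read on day 4 with 3.2, 16, 80, 400, 2000 and 10000 nM. Further groups were GSK862 (GSK3484862) at 1000 nM and GSK477 (GSK3510477) at 10000 nM, each for 2 and 4 days. The solvent DMSO, on days 1, 2, 4 and 6, was the control. Each of the 26 groups per line had 2 libraries, 156 in all, and no engineered allele is given for any line. The labels name no T cells, natural killer cells or macrophages in the cultures, and RNA levels say nothing of protein at the cell surface.

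The ligands and receptors fall into a few families. CD80 and CD86 are B7 proteins that bind CD28, which stimulates T cells, and CTLA4, which restrains them, while CD274 and PDCD1LG2 bind the inhibitory receptor PD-1, encoded by PDCD1. ICOSLG binds ICOS, and PVR binds TIGIT, CD226 and CD96 on T and natural killer cells. LGALS9 is a secreted lectin that binds HAVCR2, a receptor known on exhausted T cells, on monocytes and on leukemic stem cells of acute myeloid leukemia. CD47 is the signal that tells a macrophage not to engulf a cell, and SIRPA is its receptor on myeloid cells. Monocytes and dendritic cells normally carry CD86, HAVCR2, SIRPA and LGALS9, and interferon is a known inducer of CD274, PDCD1LG2 and LGALS9.

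Because the compounds act on CpG methylation, the promoter letters of the B7 genes are shown with each CpG dinucleotide in capitals. The sequences are from RefSeq, build GRCh38.p14, and run from 250 bases before to 50 after an annotated start, 5′ to 3′ on the gene's strand. The CD86 entries are chr3:122055112-122055411 and chr3:122077534-122077833, both on the plus strand. The CD80 entry is chr3:119559565-119559864 on the minus strand and the CD274 entry is chr9:5450292-5450591 on the plus strand.
CD86, upstream start: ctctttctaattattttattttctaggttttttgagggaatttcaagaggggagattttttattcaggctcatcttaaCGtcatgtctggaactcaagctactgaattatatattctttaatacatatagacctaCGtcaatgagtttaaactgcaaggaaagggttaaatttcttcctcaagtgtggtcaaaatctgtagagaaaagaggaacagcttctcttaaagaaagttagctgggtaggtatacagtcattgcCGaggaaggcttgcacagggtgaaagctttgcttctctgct
CD86, downstream start: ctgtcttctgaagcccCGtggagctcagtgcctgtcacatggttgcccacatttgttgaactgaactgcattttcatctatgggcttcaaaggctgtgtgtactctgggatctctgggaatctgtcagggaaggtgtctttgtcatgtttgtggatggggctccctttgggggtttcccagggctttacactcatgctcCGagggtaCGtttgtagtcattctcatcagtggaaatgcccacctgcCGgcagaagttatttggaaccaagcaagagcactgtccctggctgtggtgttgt
CD80: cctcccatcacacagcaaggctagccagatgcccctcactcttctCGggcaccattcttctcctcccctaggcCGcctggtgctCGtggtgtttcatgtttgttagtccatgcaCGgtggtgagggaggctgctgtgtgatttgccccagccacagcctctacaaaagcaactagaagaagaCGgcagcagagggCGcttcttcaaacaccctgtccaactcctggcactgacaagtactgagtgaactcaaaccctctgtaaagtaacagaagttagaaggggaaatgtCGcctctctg
CD274: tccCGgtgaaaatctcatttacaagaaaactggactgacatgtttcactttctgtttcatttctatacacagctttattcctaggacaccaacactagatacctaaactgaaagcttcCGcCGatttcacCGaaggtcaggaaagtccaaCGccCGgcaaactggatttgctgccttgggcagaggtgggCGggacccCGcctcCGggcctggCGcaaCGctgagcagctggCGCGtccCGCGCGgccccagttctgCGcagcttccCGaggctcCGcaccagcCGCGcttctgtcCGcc
The CD86 windows held 3 and 4 CpG and the CD80 window 7, against a median of 14 over the 35116 promoters of the table. The CD274 window held 22 CpG, more than 62.3% of those promoters. Of the other members with an entry, LGALS9 held 2 CpG, PVR 27, ICOSLG 42 and CD47 45. HAVCR2, SIRPA and PDCD1LG2 are named only. The letters GAAA, any 2 bases and GAAA again, part of the interferon response element, occurred 2 times in the CD274 window and 1 time in that of LGALS9, searched on both strands with overlaps counted, and in 3.6% of all promoters. These matches describe letters, not bound sites, and no methylation was measured.

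Levels are in FPKM, the authors' values per length of transcript, so genes of different length can be compared. In DMSO the members spanned a wide range. LGALS9 was highest in MV411, at 118 to 208 FPKM with a median of 169 over 8 libraries, and its median was 50.9 in NOMO1 and 85.8 in THP1. CD47 had medians of 32.1 and 30.0 FPKM in MV411 and THP1 and of 58.7 FPKM in NOMO1, with 52.2 to 64.7 FPKM there against 43.1 to 58.7 FPKM for LGALS9, so that their ranges overlapped. SIRPA had medians of 23.7, 12.8 and 23.5 FPKM and PVR of 15.7, 16.9 and 4.72 FPKM, in MV411, THP1 and NOMO1 in that order, so PVR stood above SIRPA in THP1 and below it in the other lines, without overlap. The ranges of SIRPA and CD86 overlapped in NOMO1, at 20.5 to 27.0 and 12.6 to 24.3 FPKM, so their order there is not separated. ICOSLG stood at medians of 1.85, 1.62 and 4.69 FPKM in the same order of lines.

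CD86 and HAVCR2 were scarce in DMSO libraries of MV411 and THP1 and better expressed in NOMO1. CD86 had a median of 18.3 FPKM in NOMO1, against 1.01 in MV411 and 0.597 in THP1. HAVCR2 had 1.86, 0.477 and 0.374 FPKM in the same order of lines. CD80, CD274 and PDCD1LG2 were under 1 FPKM in every DMSO library, with highest values of 0.533, 0.498 and 0.301 FPKM. At the depth estimated from the values, 0.1 FPKM of CD274 stands for 24.7 to 26.4 fragments, so such low levels were still counted. The lines have separate tables and no test between lines was run.

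**Figure D1:**
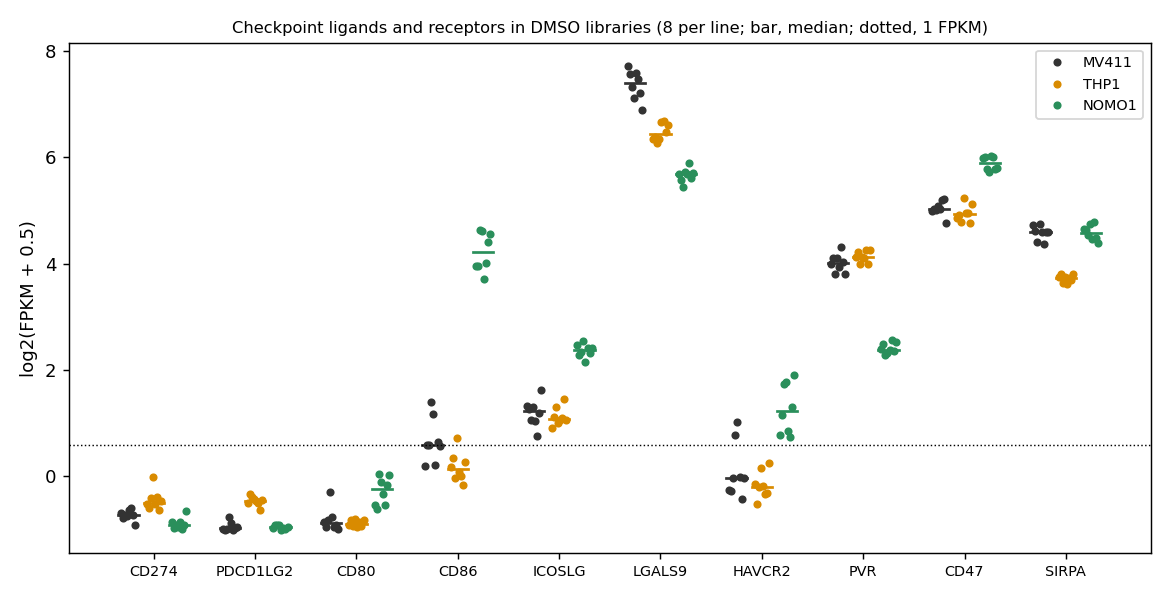
Levels of the 10 genes in the 8 DMSO libraries of each line, as log2(FPKM + 0.5), with the dotted line at 1 FPKM and bars at medians. LGALS9, CD47, SIRPA and PVR lie well above the line in all 3 lines, whereas CD274, PDCD1LG2 and CD80 lie below it.

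The cell type was checked on marker lists. Of 8 myeloid markers, CD33, SPI1, PTPRC, LYZ and CSF1R were at 3.93 FPKM or more in each library, while ITGAM, MPO and CD14 reached lows of 0.842, 1.94 and 0.108 FPKM in MV411. The myeloid sum, mostly LYZ and MPO, was 917 to 2867 FPKM with DAC and 978 to 9510 FPKM with GSK032 in MV411, against 626 to 1948 FPKM with DMSO. In NOMO1 it was 1824 to 6544 FPKM with DAC and 4579 to 7969 FPKM with GSK032, against 5594 to 7768 FPKM with DMSO, and in THP1 all groups lay between 375 and 707 FPKM. Of the T-cell markers CD3D, CD3E, CD2 and CD8A, CD3E and CD2 stayed at or under 0.799 and 0.914 FPKM in all libraries. Their sum in NOMO1, mostly CD3D, was 12.0 to 193 FPKM with DAC, 8.09 to 64.8 FPKM with GSK032 and 13.4 to 33.3 FPKM with GSK862, against 4.08 to 12.8 FPKM with DMSO. In MV411 and THP1 it was at most 1.27 and 3.63 FPKM. The sum of the natural killer markers NKG7, NCAM1 and KLRD1 in NOMO1, mostly NKG7, was 53.7 to 155 FPKM with DAC and 88.8 to 145 FPKM with GSK032, against 103 to 139 FPKM with DMSO. In MV411 it was 13.5 to 47.7 FPKM with DAC or GSK032 and 29.8 to 61.3 FPKM with DMSO, and in THP1 it was at most 22.5 FPKM. KLRD1 stayed at or under 1.66 FPKM. The B-cell gene MS4A1 had a median of 0 in each line and stayed at or under 0.894 FPKM. The epithelial markers EPCAM, KRT8 and KRT18 summed in NOMO1 to 41.0 to 220 FPKM with DAC, 30.0 to 87.8 FPKM with GSK032 and 45.5 to 70.6 FPKM with GSK862, against 26.4 to 40.7 FPKM with DMSO. In THP1 that sum was 1.84 to 47.3 FPKM with DAC and 1.63 to 6.09 FPKM with GSK032, against 1.59 to 2.39 FPKM with DMSO. The fibroblast markers COL1A1, COL1A2 and DCN summed in NOMO1 to 3.93 to 52.4 FPKM with DAC, against 2.39 to 9.55 FPKM with DMSO, and in THP1 to 0.727 to 27.4 FPKM with DAC, against 0.303 to 1.2 FPKM with DMSO. The part of these genes in the results was not tested.

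A gene was tested in a line if it had at least 1 FPKM in at least 2 of the 52 libraries, and was called at a limma adjusted p below 0.05 and a log2 change of at least 1 on the log2(FPKM + 0.5) scale. That scale understates changes of scarce genes. In MV411 and THP1, 7 of the 10 members could be tested, all but CD274, PDCD1LG2 and CD80, and in NOMO1 9, all but PDCD1LG2. CD80 and CD274 in NOMO1, and CD86 and HAVCR2 in THP1, reached that minimum through treated libraries, so the counts below are descriptions of the genes that passed.

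The first question was what each compound did at 400 nM on day 4. Among tested members, CD86 rose in MV411 with both compounds. CD86 and HAVCR2 rose in THP1 with DAC, and CD80, CD86 and HAVCR2 rose in NOMO1 with DAC. No tested member was called lower, against 2.76%, 0.336% and 0.376% of all tested genes with GSK032 in MV411, THP1 and NOMO1. With DAC those shares were 3.34%, 1.93% and 5.94%. With 7 to 9 members tested per line, none called lower is near these shares. With GSK032, 1 of 7 members was called higher in MV411, against 6.55% of all tested genes, 0 of 7 in THP1, against 1.94%, and 0 of 9 in NOMO1, against 2.55%. With DAC, 1 of 7 was called higher in MV411, against 6.86%, 2 of 7 in THP1, against 6.23%, and 3 of 9 in NOMO1, against 13.2%. The median log2 change of the tested members was 0.09, -0.11 and 0.18 for GSK032 in MV411, THP1 and NOMO1, and -0.005, 0.38 and 0.53 for DAC, where that of all tested genes lay between -0.03 and 0. In bulk RNA, fewer cells with a transcript and less transcript per cell cannot be told apart.

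CD86 in MV411 had 4.91 and 3.66 FPKM with GSK032 and 4.78 and 5.85 FPKM with DAC, against 1.01 and 0.98 FPKM with DMSO. All 4 treated libraries lay above both DMSO libraries. The log2 change was 1.66 ± 0.21 (SE, n = 2 each, limma adjusted p = 3.71e-07) for GSK032 and 1.95 ± 0.21 (n = 2 each, limma adjusted p = 2.09e-08) for DAC. On the plain FPKM scale the group means stood 4.30-fold and 5.33-fold above DMSO. In the authors' deposited table the log2 change of CD86 was 2.12 for GSK032 and 2.40 for DAC.

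CD86 in THP1 had 1.2 and 1.2 FPKM with GSK032 and 3.68 and 3.24 FPKM with DAC, against 0.482 and 0.393 FPKM with DMSO. HAVCR2 in THP1 had 0.763 and 0.968 FPKM with GSK032 and 2.81 and 2.73 FPKM with DAC, against 0.368 and 0.305 FPKM with DMSO. Both genes were highest with DAC and intermediate with GSK032, with no overlap between the 3 groups. With DAC the log2 changes were 2.08 ± 0.19 for CD86 (SE, limma adjusted p = 7.25e-10) and 1.97 ± 0.15 for HAVCR2 (limma adjusted p = 1.35e-11). With GSK032 they were 0.86 ± 0.19 for CD86 and 0.70 ± 0.15 for HAVCR2, past the p threshold (limma adjusted p = 0.00126 and 0.000733) but under the fold minimum. With a pseudocount of 0.1 in place of 0.5 both were called, and the FPKM means stood 2.74-fold and 2.57-fold above DMSO.

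CD80 in NOMO1, scarce in DMSO, had 3.49 and 3.99 FPKM with DAC against 0.533 and 0.394 FPKM with DMSO, a log2 change of 2.14 ± 0.20 (SE, limma adjusted p = 2.85e-10). HAVCR2 had 13.0 and 14.6 FPKM with DAC against 2.84 and 1.98 FPKM with DMSO, a log2 change of 2.32 ± 0.18 (limma adjusted p = 5.78e-12). CD86, already at 24.3 and 20.8 FPKM with DMSO, had 57.9 and 63.4 FPKM with DAC, a log2 change of 1.41 ± 0.12 (limma adjusted p = 6.11e-11). GSK032 at the same dose left 19.6 and 17.2 FPKM of CD86, below both DMSO libraries, and its log2 change of -0.29 ± 0.12 was not called. HAVCR2 had 4.20 and 3.55 FPKM with GSK032 (0.60 ± 0.18, not called) and CD80 had 0.681 and 0.507 FPKM (0.18, not called).

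**Figure D2:**
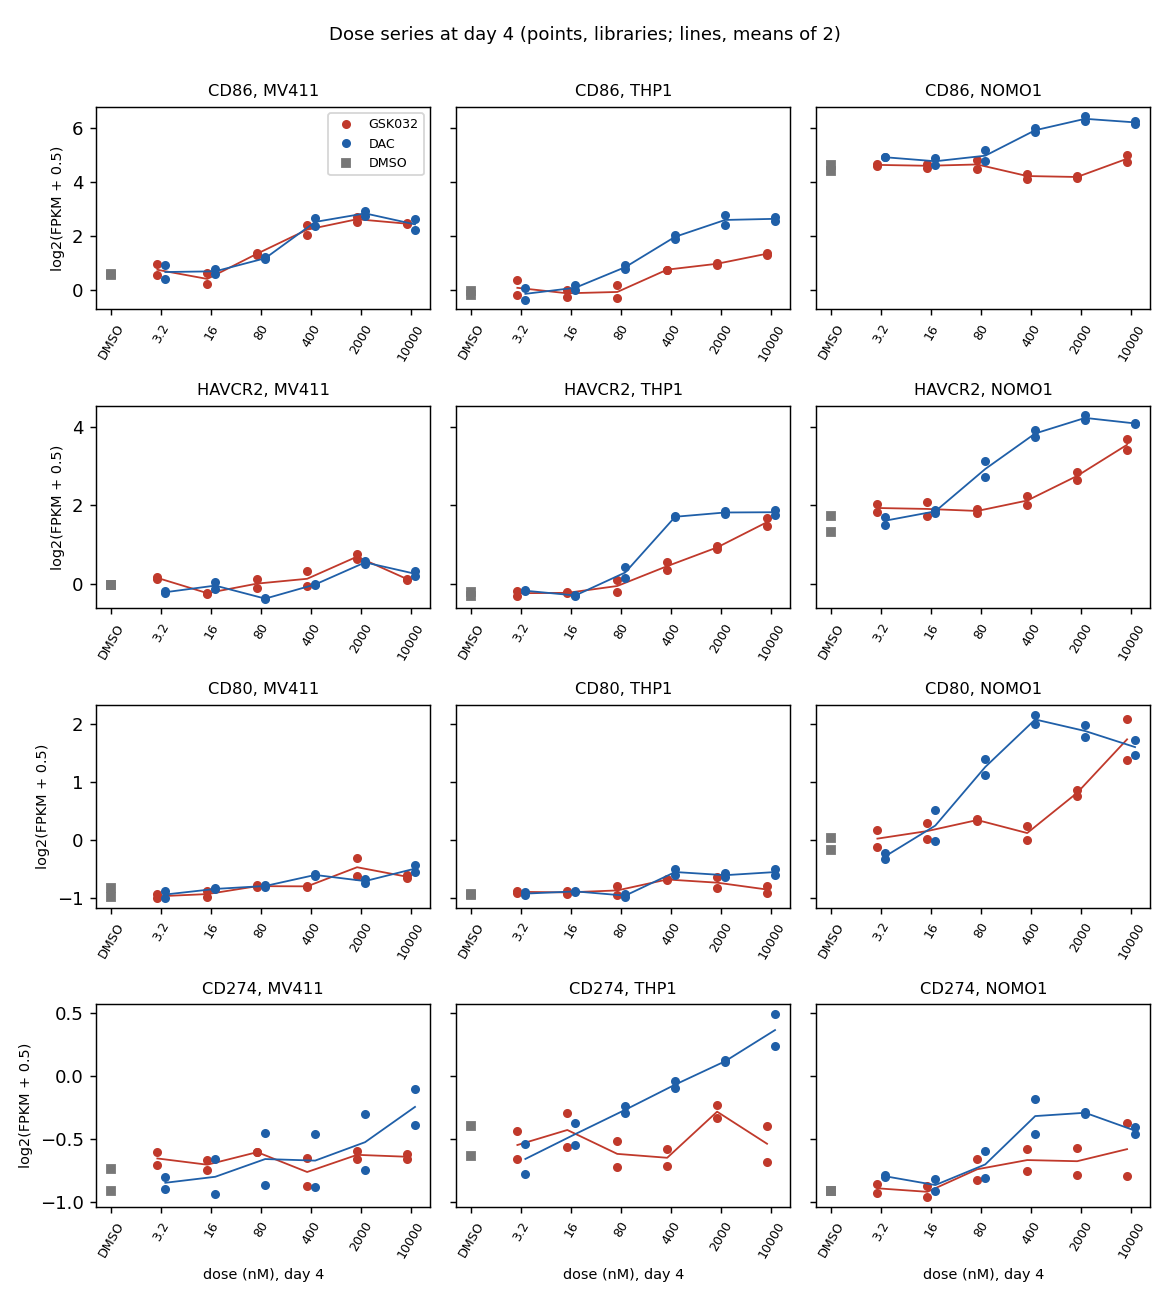
Values of CD86, HAVCR2, CD80 and CD274 at day 4 over the doses of GSK032 (red) and DAC (blue), as log2(FPKM + 0.5), with DMSO (grey) at the left of each panel. CD86 climbs alike with both compounds in MV411, whereas in THP1 and NOMO1 the DAC points leave the GSK032 points from 80 or 400 nM on.

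The same genes responded to dose. In MV411, CD86 had 2.13 and 2.00 FPKM at 80 nM GSK032, 6.09 and 5.35 at 2000 nM and 5.09 and 4.97 at 10000 nM. DAC gave 1.84 and 1.71 FPKM at 80 nM, 7.24 and 6.22 at 2000 nM and 5.80 and 4.19 at 10000 nM. Neither compound gave more at 10000 nM than at 2000 nM, and at 3.2 and 16 nM all 8 libraries of the 2 compounds held 0.662 to 1.44 FPKM. The log2 change was called at 400, 2000 and 10000 nM with both compounds.

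In THP1, CD86 reached 2.00 and 2.12 FPKM at 10000 nM GSK032 and 5.48 and 6.08 FPKM at 10000 nM DAC. The log2 changes from DMSO were 1.45 ± 0.19 (SE, limma adjusted p = 4.36e-07) and 2.74 ± 0.19 (limma adjusted p = 9.16e-13). HAVCR2 reached 2.27 and 2.69 FPKM at 10000 nM GSK032 and 3.19 and 2.90 FPKM at 10000 nM DAC. Its DAC values were already 2.81 and 2.73 FPKM at 400 nM and 2.92 and 3.14 FPKM at 2000 nM, so the 6 DAC libraries of 400 nM and above lay close together while GSK032 rose higher with dose. CD86 and HAVCR2 were called at 2000 nM GSK032 (1.08 and 1.18 on the log2 scale), but with a pseudocount of 1 these values were 0.79 and 0.84, and CD86 was at 0.95 with every library rescaled to the same sum.

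In NOMO1, DAC raised CD80 and HAVCR2 from 80 nM on. HAVCR2 had 6.09 and 8.33 FPKM at 80 nM DAC and 17.5 and 19.2 FPKM at 2000 nM. CD80 had 1.67 and 2.15 FPKM at 80 nM DAC, and its highest day 4 values with DAC were those at 400 nM. The CD80 call at 80 nM (1.32) was lost with a pseudocount of 1 (0.99). GSK032 raised HAVCR2 at 2000 nM, to 5.80 and 6.73 FPKM (1.23 ± 0.18, SE, limma adjusted p = 2.87e-06), and at 10000 nM, to 10.1 and 12.4 FPKM (2.03 ± 0.18, limma adjusted p = 1.54e-10). At 10000 nM GSK032 also raised CD80, to 2.12 and 3.75 FPKM (1.8 ± 0.20, limma adjusted p = 1.37e-08). CD86 of NOMO1 had 26.3 and 31.7 FPKM at 10000 nM GSK032 and 76.5 and 72.0 FPKM at 10000 nM DAC, and the GSK032 value was not called (0.35).

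At 10000 nM GSK032, 1 of 7 members was called higher in MV411, against 10% of all tested genes, 2 of 7 in THP1, against 4.94%, and 2 of 9 in NOMO1, against 9.21%. At 10000 nM DAC the counts were 1 of 7 in MV411, against 10.7%, 2 of 7 in THP1, against 11.1%, and 3 of 9 in NOMO1, against 16.1%, and LGALS9 was called lower in MV411. GSK477 at the same dose and day called 0 of 7 higher in MV411, against 0.0318% of all tested genes, 0 of 7 in THP1, against 0.00861%, and 0 of 9 in NOMO1, against 0.173%. GSK032 minus GSK477 at 10000 nM gave log2 differences for CD86 of 2.16 in MV411 and 1.58 in THP1, and for HAVCR2 of 1.67 in THP1 and 1.28 in NOMO1, all called. Of all tested genes, 12.3% in MV411 and 5.24% in THP1 were called higher in that contrast. The share in NOMO1 is not given here, and 9.21% were called higher there with GSK032 against DMSO. CD80 in NOMO1 had 2.12 and 3.75 FPKM with GSK032 and 0.565 and 0.832 FPKM with GSK477. In NOMO1 HAVCR2 had 3.66 and 5.08 FPKM with GSK477, a log2 change of 0.74 ± 0.18 (limma adjusted p = 0.0325) that was under the fold minimum.

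**Figure D3:**
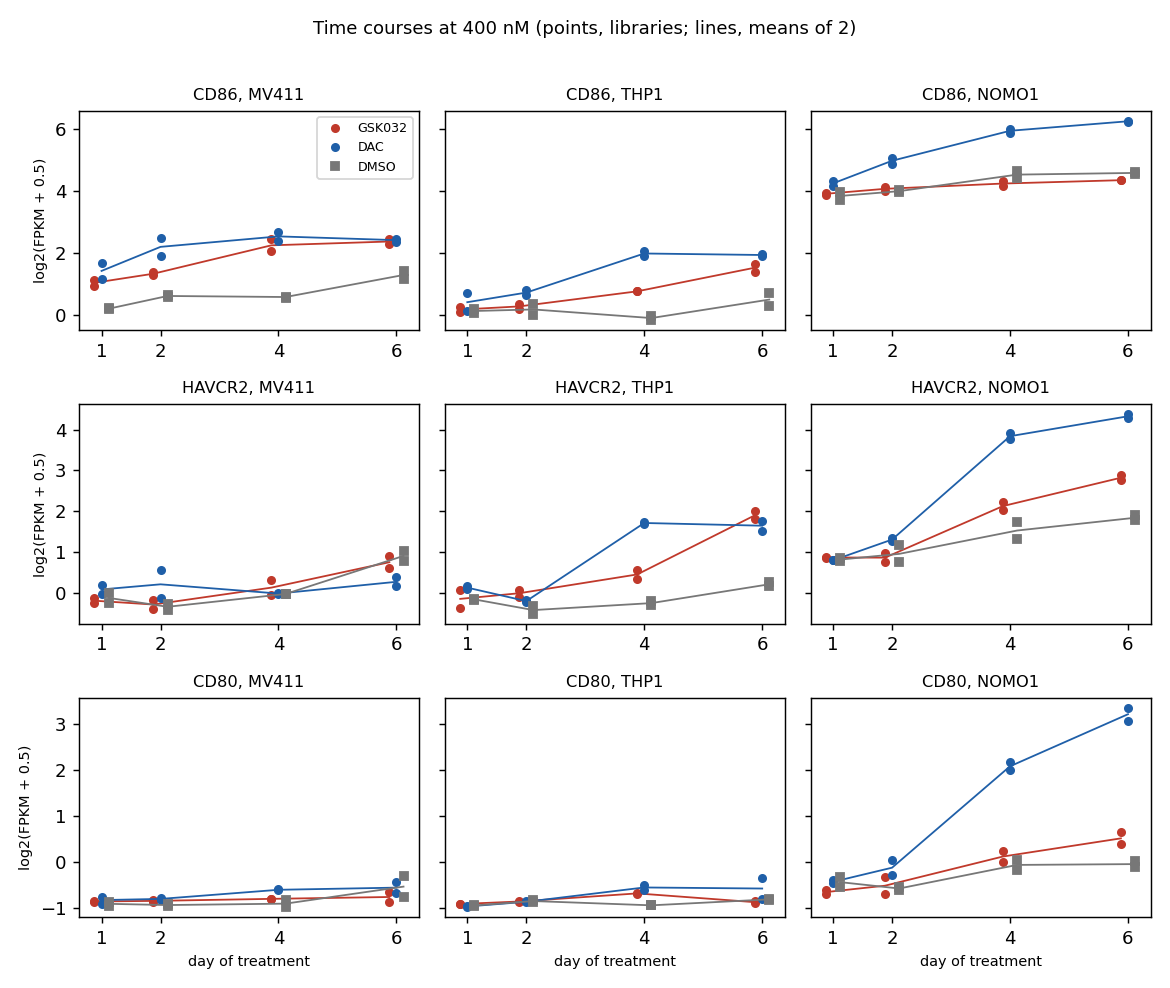
Time courses at 400 nM of CD86, HAVCR2 and CD80 in log2(FPKM + 0.5), with GSK032 in red, DAC in blue and DMSO in grey. The DAC points stand above GSK032 and DMSO on days 4 and 6 for all 3 genes in NOMO1, and the DMSO points also climb for CD86 and HAVCR2 in MV411 and NOMO1.

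Over time at 400 nM, CD86 was the earliest member to be called, and the call in MV411 was the only one on day 1. In MV411 it had 1.73 and 2.73 FPKM on day 1 of DAC, against 0.644 and 0.663 FPKM with DMSO, a called log2 change of 1.22 ± 0.21 (SE, limma adjusted p = 0.00105), which was 0.95 (limma adjusted p = 0.0574) without replicate 2 of that DAC group and 0.95 with a pseudocount of 1. GSK032 gave 1.43 and 1.69 FPKM on day 1, above both DMSO libraries but not called (0.83). On day 2 it had 1.93 and 2.11 FPKM with GSK032 and 3.27 and 5.08 FPKM with DAC, against 1.00 and 1.06 FPKM with DMSO. In NOMO1 the DAC value on day 2 was 33.1 and 28.6 FPKM against 15.1 and 15.7 FPKM with DMSO, 0.98 on the log2 scale and just under the fold minimum.

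By day 6 HAVCR2 in THP1 had 2.99 and 3.5 FPKM with GSK032 and 2.36 and 2.91 FPKM with DAC, against 0.612 and 0.694 FPKM with DMSO. Both GSK032 libraries lay just above both DAC libraries. Its GSK032 change was 1.70 ± 0.15 (SE, limma adjusted p = 6.17e-10) on day 6, and the day 6 effect exceeded the day 1 effect by 1.68 ± 0.21 (limma adjusted p = 1.52e-06). CD86 in THP1 had 2.65 and 2.14 FPKM with GSK032 on day 6, against 1.15 and 0.712 FPKM with DMSO, a called change of 1.03 ± 0.19 that fell under the minimum without GSK032 replicate 1 (0.90) or without DMSO replicate 2 (0.81). On day 6 none of the 7 tested THP1 members was called between GSK032 and DAC. Of all tested genes 0.594% were called higher and 2.49% lower, so none of 7 is near those shares.

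In NOMO1 the DAC response widened by day 6. CD80 had 7.93 and 9.68 FPKM with DAC and 0.811 and 1.07 FPKM with GSK032, against 0.432 and 0.516 FPKM with DMSO. Its DAC mean stood 18.6-fold above DMSO in FPKM, and the log2 change was 3.25 ± 0.20 (SE, limma adjusted p = 2.3e-14). HAVCR2 had 18.9 and 20.3 FPKM with DAC and 6.24 and 6.90 FPKM with GSK032, against 2.92 and 3.23 FPKM with DMSO. CD86 had 74.0 and 76.1 FPKM with DAC and 19.9 and 19.7 FPKM with GSK032, against 23.8 and 22.9 FPKM with DMSO. CD274, the PD-L1 gene, had 1.07 and 1.43 FPKM with DAC and 0.125 and 0.0660 FPKM with GSK032, against 0.0189 and 0.138 FPKM with DMSO (DAC change 1.60 ± 0.14, limma adjusted p = 7.28e-11). No other library of the series reached 1 FPKM of CD274. The gene was thus tested in NOMO1 only because of these DAC libraries, and its p-value is a description.

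On day 6, 1 of 7 members was called higher with GSK032 in MV411, against 8.22% of all tested genes, 2 of 7 in THP1, against 3.29%, and 0 of 9 in NOMO1, against 4.25%. With DAC the counts were 1 of 7 in MV411, against 7.03%, 2 of 7 in THP1, against 7.26%, and 4 of 9 in NOMO1, against 14.9%. CD274, among these 4, passed the filter only through the DAC libraries of day 6, so the filter favoured its call. The count in NOMO1 is thus a description and not a test of the members. In MV411 CD86 had 4.96 and 4.38 FPKM with GSK032 and 5.00 and 4.66 FPKM with DAC, against 2.15 and 1.76 FPKM with DMSO. The changes of 1.08 and 1.12 were smaller than on day 4, and the DMSO level was higher. The GSK032 call was lost without GSK032 replicate 1 (0.997) or without DMSO replicate 2 (0.96), and both calls were lost with every library rescaled to the same sum (0.96 for each) and with a pseudocount of 1 (0.94 for GSK032 and 0.98 for DAC).

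CD86 and HAVCR2 also differed between days within DMSO. In DMSO of MV411, day 6 minus day 1 was 1.09 ± 0.21 (SE, limma adjusted p = 0.000643) for CD86 and 1.03 ± 0.17 (limma adjusted p = 9.64e-05) for HAVCR2, and in NOMO1 it was 1.03 ± 0.18 (limma adjusted p = 0.000673) for HAVCR2. HAVCR2 in MV411 had 1.22 and 1.53 FPKM on day 6 and 0.343 and 0.490 FPKM on day 1. These were 2 of 7 members in MV411, against 1.74% of all tested genes, 0 of 7 in THP1, against 0.0904%, and 1 of 9 in NOMO1, against 0.496%. Each of the 3 calls lay close to the fold minimum and was lost without 1 of the libraries: CD86 was at 0.97 without day 6 replicate 1, HAVCR2 of MV411 to 0.92 without day 1 replicate 1 and to 0.91 without day 6 replicate 2, and HAVCR2 of NOMO1 to 0.99 without day 1 replicate 1 and to 0.96 without day 6 replicate 2. With a pseudocount of 1 they were 0.83, 0.74 and 0.85 in the same order, and HAVCR2 of NOMO1 was 0.88 with every library rescaled to the same sum.

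**Figure D4:**
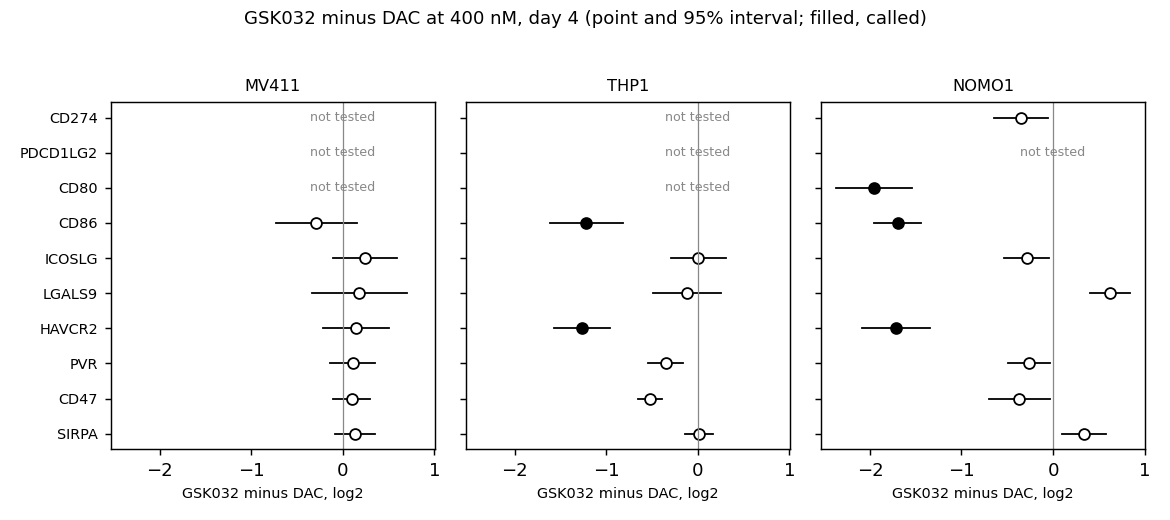
Difference of GSK032 minus DAC at 400 nM on day 4, in log2, with 95% intervals for each tested gene, negative where GSK032 was lower. CD86 and HAVCR2 in THP1 and CD80, CD86 and HAVCR2 in NOMO1 are filled as called, and no gene is called in MV411.

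The compounds were compared directly at matched dose and day. At 400 nM on day 4, GSK032 minus DAC was called lower for 0 of 7 members in MV411, against 1.23% of all tested genes, for 2 of 7 in THP1, against 2.99%, and for 3 of 9 in NOMO1, against 9.73%. In MV411 the difference for CD86 was -0.29, with a 95% interval of -0.73 to 0.15, and was not called. In THP1 it was -1.22 (-1.62 to -0.82) for CD86 and -1.26 (-1.57 to -0.95) for HAVCR2. In NOMO1 it was -1.96 (-2.37 to -1.54) for CD80, -1.70 (-1.95 to -1.44) for CD86 and -1.72 (-2.09 to -1.34) for HAVCR2. With every library rescaled to the same sum, CD86 in THP1 was at -0.98 and no longer called. The limma adjusted p of the 5 calls was at most 2.26e-05.

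At higher dose the differences of CD86 stayed in THP1, at -1.62 with 2000 nM and -1.29 with 10000 nM, and in NOMO1, at -2.16 and -1.35, all called. For HAVCR2 the difference at 10000 nM was -0.55 in NOMO1 and was not called. CD80 in NOMO1 was called at 2000 nM (-1.07, but -0.97 without DAC replicate 1 at that dose and -0.89 with a pseudocount of 1) and not at 10000 nM. HAVCR2 in NOMO1 was called at 80 nM (-1.07, but -0.86 without DAC replicate 2 at that dose and -0.98 with a pseudocount of 1). On day 6 at 400 nM, NOMO1 differences were called for CD274 (-1.55), CD80 (-2.69), CD86 (-1.90) and HAVCR2 (-1.51). The share of all tested genes in that contrast is not given here. CD274 was tested in NOMO1 only through the DAC libraries of that day, so its difference is a description.

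SIRPA and LGALS9 separated the compounds in the other direction. SIRPA, the myeloid receptor of CD47, had 21.4 and 21.5 FPKM in THP1 at 10000 nM GSK032 and 10.3 and 11.5 FPKM at 10000 nM DAC, with 12.0 and 12.5 FPKM in DMSO. In MV411 it had 35.6 and 33.6 FPKM with GSK032 and 23.1 and 19.6 FPKM with DAC, and in NOMO1 36.5 and 33.3 FPKM with GSK032 and 19.7 and 17.7 FPKM with DAC. GSK032 stood above DAC in every library of the 3 lines at that dose. The differences were 0.69 in MV411, 0.94 in THP1 and 0.88 in NOMO1 (limma adjusted p = 6.95e-06, 2.99e-11 and 2.49e-07), all under the fold minimum and so not called. The fitted change of SIRPA in THP1 between the lowest and the highest GSK032 dose was 0.95 (95% interval 0.81 to 1.08, limma adjusted p = 3.2e-13), and also not called.

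LGALS9 in MV411 had 85.3 and 49.8 FPKM at 2000 nM DAC and 69.3 and 48.2 FPKM at 10000 nM DAC, against 160 and 118 FPKM with DMSO. The changes were -1.07 ± 0.25 (SE, limma adjusted p = 0.000792) and -1.25 ± 0.25 (limma adjusted p = 0.000128), both called lower, against 9.28% and 12.5% of all tested genes. The first became -0.69 without DAC replicate 2 and -0.85 without DMSO replicate 1, and the second -0.98 without DAC replicate 2. Neither call was thus kept in every fit. Replicate 1 was the higher library in each of these groups, and both DAC replicates lay below both DMSO replicates at either dose. Leaving out 1 library unbalances the replicates, so these values cannot tell whether 1 library carries the calls. GSK032 minus DAC was 1.2 at 2000 nM and 1.1 at 10000 nM, called higher, and 0.77 and 0.84 without DAC replicate 2 of the dose (0.99 at 10000 nM without GSK032 replicate 1). In NOMO1 LGALS9 had 21.7 and 23.8 FPKM at 10000 nM DAC against 43.1 and 48.4 FPKM with DMSO, -0.99 and just under the minimum, and its fitted change between the lowest and the highest DAC dose, -1.23, was called (limma adjusted p = 4.39e-13). In THP1 the same dose gave 44.6 and 54.9 FPKM against 76.6 and 88.9 FPKM with DMSO (-0.73, not called). GENCODE also lists another coding gene over LGALS9 on the same strand, and LGALS9B and LGALS9C are near copies. How the authors split reads among them is not given in the sources used here.

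PVR, the ligand of TIGIT, was lower in MV411 at the highest dose of both compounds. It had 9.07 and 9.77 FPKM at 10000 nM GSK032 and 7.36 and 5.88 FPKM at 10000 nM DAC, against 13.4 and 13.4 FPKM with DMSO. The DAC change of -0.97 ± 0.12 (SE, limma adjusted p = 6.63e-08) was under the minimum. DAC minus GSK477 at that dose was called at -1.08, but was -0.97 without a GSK477 library and -0.93 without DAC replicate 2. In THP1 PVR stayed between 13.2 and 19.7 FPKM and in NOMO1 between 3.29 and 6.12 FPKM over all 52 libraries of the line. Antisense genes overlap PVR, HAVCR2 and SIRPA, CD80 overlaps TIMMDC1 on the other strand, and MED7 overlaps HAVCR2 on the same strand. Whether strand was used in counting is not given in the sources used here, so their levels are uncertain to that extent.

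CD47 and ICOSLG were called in no contrast with DMSO in any line. CD47 ranged from -0.26 to 0.43 on the log2 scale over the 22 contrasts of MV411, from -0.17 to 0.49 in THP1 and from -0.05 to 0.73 in NOMO1. In THP1 it had 35.3 and 35.1 FPKM with DAC and 24.9 and 23.7 FPKM with GSK032 at 400 nM on day 4, against 27.1 and 26.6 FPKM with DMSO. GSK032 minus DAC for CD47 was -0.52 there (95% interval -0.66 to -0.39, limma adjusted p = 4.83e-07), without overlap but under the fold minimum. In NOMO1 CD47 had 86.8 and 95.2 FPKM at 10000 nM DAC against 54.6 and 54.2 FPKM with DMSO, and the 2 libraries of 80 nM DAC disagreed, at 90.8 and 42.4 FPKM. ICOSLG stayed between 1.08 and 2.82 FPKM in MV411, between 1.13 and 2.35 FPKM in THP1 and between 2.46 and 7.46 FPKM in NOMO1.

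GSK862 at 1000 nM called 0 of 7 members higher on day 4 in MV411, against 4.2% of all tested genes, 0 of 7 in THP1, against 1.17%, and 0 of 9 in NOMO1, against 2.41%. CD86 in MV411 had 2.75 and 2.19 FPKM with GSK862 against 1.01 and 0.98 FPKM with DMSO, 0.98 ± 0.21 on the log2 scale (SE, limma adjusted p = 0.000888). With a pseudocount of 0.1, or every library rescaled to the same sum, it was called. In THP1 HAVCR2 had 1.15 and 0.832 FPKM with GSK862 against 0.368 and 0.305 FPKM with DMSO (0.83 ± 0.15), and CD86 1.22 and 1.12 FPKM against 0.482 and 0.393 FPKM (0.83 ± 0.19), both called with a pseudocount of 0.1. On day 2 no member was called with GSK862 or GSK477. Of all tested genes, GSK862 called 1.45% in MV411 and 0.237% in THP1 on that day, and GSK477 0.0636% and 0.0172%. The shares in NOMO1 are not given here. With so few members tested, none called is near the shares of MV411 and THP1.

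**Figure D5:**
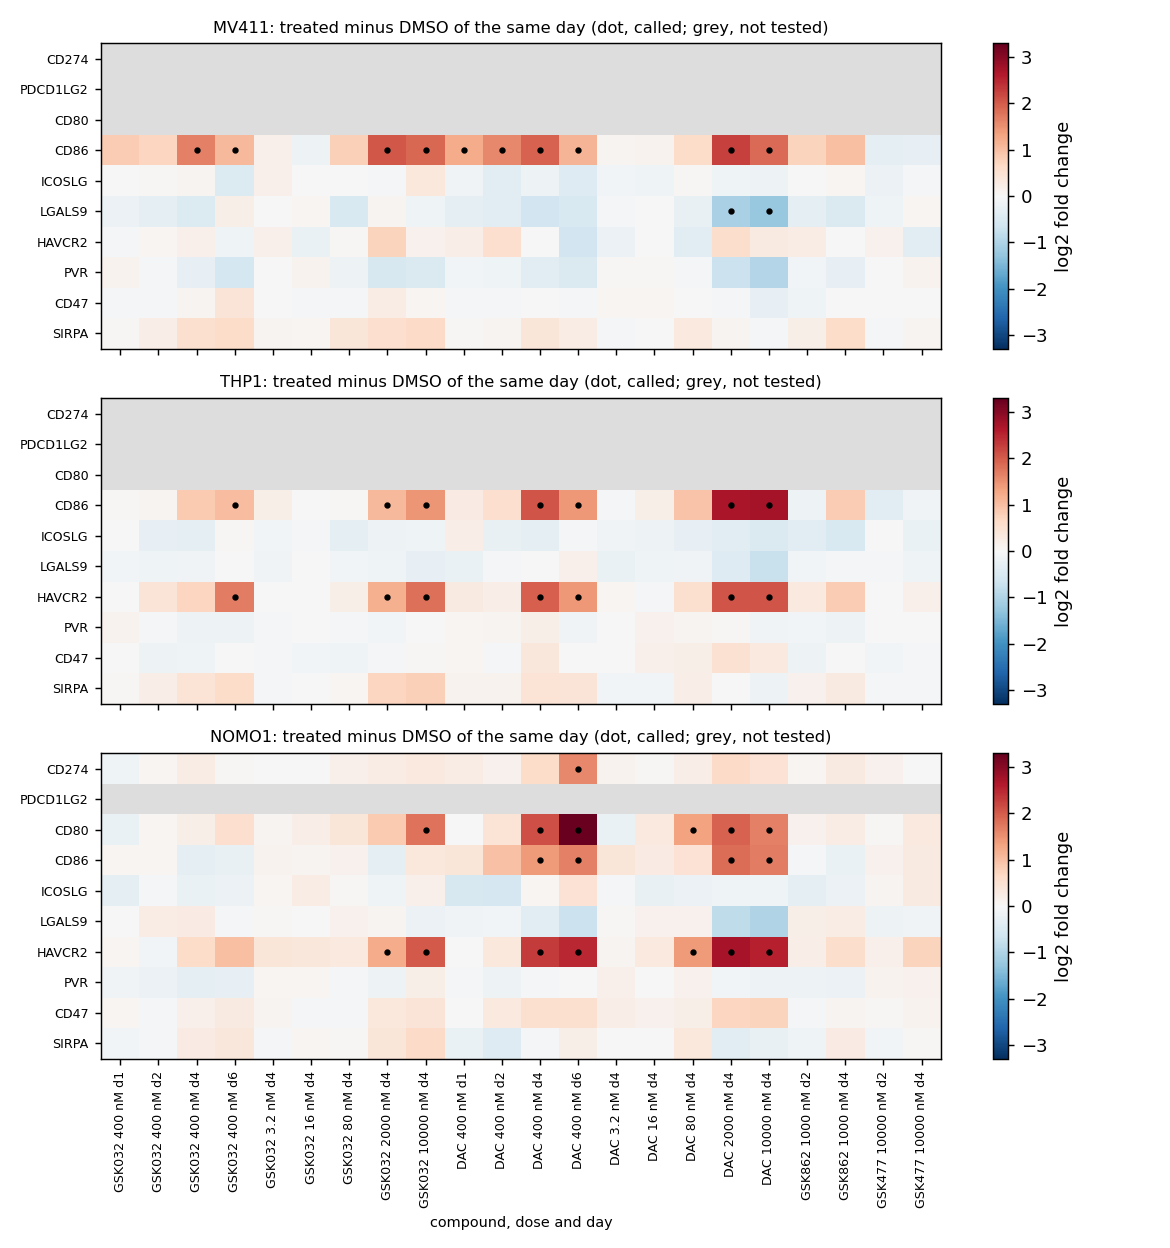
Log2 change of the 10 genes against DMSO of the same day, with a row for each gene and a column for each of the 22 compound, dose and day groups in each line from blue (lower) to red (higher). Dots mark called changes and grey the genes not tested; red dots lie on CD86, HAVCR2, CD80 and CD274, and the blue dots on LGALS9 in MV411.

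Interferon-stimulated genes were counted beside CD274, which stayed under 1 FPKM in every library of day 4. Of 20 such genes, all tested in MV411 and THP1, 14 rose in MV411 and 10 in THP1 with GSK032 at 400 nM on day 4, against 6.55% and 1.94% of all tested genes. With DAC 4 rose in MV411 and 19 in THP1, against 6.86% and 6.23%. Of the 18 tested in NOMO1, GSK032 raised 0 and DAC 10, against 2.55% and 13.2%, and 1, MX2, fell with DAC (-1.04), against 5.94%. In THP1 with DAC, IFI27 rose by 8.02 on the log2 scale and IFI44L by 4.84, and the median of the list was 3.13. CD274 in the same libraries had 0.438 and 0.473 FPKM with DAC against 0.259 and 0.144 FPKM with DMSO, and at 10000 nM DAC it had 0.912 and 0.678 FPKM. In MV411 with GSK032, where IFI27 rose by 4.83 and MX1 by 2.46, CD274 had 0.0479 and 0.137 FPKM against 0.102 and 0.0331 FPKM with DMSO. In NOMO1 with DAC at 400 nM on day 4, CD274 had 0.385 and 0.230 FPKM against 0.0330 and 0.0315 FPKM with DMSO. The authors' deposited log2 changes of CD274 with DAC were 0.851 in MV411, 1.19 in THP1 and 3.36 in NOMO1. With GSK032 they were 0.170, -0.522 and 2.06 in the same order of lines, all from low levels. In MV411 GSK032 minus DAC was called higher for 10 of the 20 interferon-stimulated genes, against 0.682% of all tested genes, and stood at -0.29 for CD86. The same difference was called lower for 17 of the 20 in THP1 and for 8 of the 18 in NOMO1, against 2.99% and 9.73%.

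A list of 20 regulators of PD-L1 and of the interferon-gamma pathway was tested whole. At 400 nM on day 4 GSK032 raised 4 in MV411, among them IRF9, CMTM4 and STAT2 (1.32, 1.1 and 1.03 on the log2 scale), against 6.55% of all tested genes, and 0 in the other lines. DAC raised 5 of the 20 in THP1, 1 in MV411 and 3 in NOMO1, against 6.23%, 6.86% and 13.2% of all tested genes, and lowered 1 in each line, against 1.93%, 3.34% and 5.94%. The counts of MV411 and NOMO1 are near those shares. SOCS1, a feedback inhibitor of JAK kinases, rose with DAC in all 3 lines, by 1.4 in MV411, 1.95 in THP1 and 2.04 in NOMO1. MYC, a transcription factor reported to drive CD274 and CD47, fell with DAC by 1.92 in NOMO1 and by 1.33 in both MV411 and THP1.

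Further ligands moved beside the members. Of 20 other checkpoint and costimulatory ligands, 12 were tested in MV411 and 15 in each of THP1 and NOMO1. At 400 nM on day 4 GSK032 raised 4, 0 and 2 of them in MV411, THP1 and NOMO1, against 6.55%, 1.94% and 2.55% of all tested genes. It lowered 0 in each line, against 2.76%, 0.336% and 0.376%. DAC raised 4, 4 and 5, against 6.86%, 6.23% and 13.2%, and lowered 0, 0 and 1, against 3.34%, 1.93% and 5.94%. CD40, a receptor through which T cells activate antigen-presenting cells, rose with DAC by 1.58 in MV411, 1.45 in THP1 and 2.73 in NOMO1. LGALS3, galectin-3, rose with DAC by 1.31, 1.54 and 1.44 in the same order of lines. HHLA2, a B7 relative, rose by 1.27 with GSK032 in MV411 and fell by 4.38 with DAC in NOMO1. CD24, another macrophage checkpoint, rose by 1.5 with GSK032 in NOMO1.

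Of 10 genes for receptors or partners of these ligands, 4 passed the filter in NOMO1 and in MV411 and 2 in THP1. At 400 nM on day 4 DAC raised THBS1, thrombospondin-1, which binds CD47, by 1.23 in MV411, 1.90 in THP1 and 3.06 in NOMO1, and in NOMO1 CD226 by 2.20 and PDCD1 by 1.90. These were 1 of 4 in MV411, 1 of 2 in THP1 and 3 of 4 in NOMO1, against 6.86%, 6.23% and 13.2% of all tested genes. At that dose and day GSK032 raised none of them, against 6.55%, 1.94% and 2.55% in the same order of lines. With so few genes tested, that is near those shares. At 10000 nM on day 4 GSK032 raised 1, 0 and 3 of them, against 10%, 4.94% and 9.21%. Of 7 relatives of SIRPA and of the engulfment receptors, DAC at 400 nM on day 4 raised LRP1 by 2.38 and SIRPG by 2.36 in NOMO1 and SIRPD by 1.04 in MV411, and GSK032 raised SIRPD and SIRPB2, each by 1.45, in MV411. With DAC these were 1 of 7 in MV411, 0 of 6 in THP1 and 2 of 7 in NOMO1, against 6.86%, 6.23% and 13.2% of all tested genes. With GSK032 they were 2 of 7, 0 of 6 and 0 of 7, against 6.55%, 1.94% and 2.55%.

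CD86 and HAVCR2 are also monocyte genes, so other genes of monocytes and macrophages were counted. Of 16 such genes, 13, 14 and 16 passed the filter in MV411, THP1 and NOMO1. GSK032 at 400 nM on day 4 raised 5, 2 and 2, against 6.55%, 1.94% and 2.55% of all tested genes. DAC raised 4, 7 and 6, against 6.86%, 6.23% and 13.2%, and lowered 0, 0 and 2, against 3.34%, 1.93% and 5.94%. CD14, a monocyte receptor for lipopolysaccharide, rose with DAC by 2.70 in THP1 and 4.71 in NOMO1. It does not stand for the whole list, since 2 of the 16 fell with DAC in NOMO1. The summed myeloid markers there, mostly LYZ and MPO, were 1824 to 6544 FPKM over all DAC groups, against 5594 to 7768 FPKM with DMSO. The median change of the list was 0.78, 0.80 and 0.49 with DAC and 1.12, 0.53 and 0.46 with GSK032 in MV411, THP1 and NOMO1, where that of all tested genes was between -0.03 and 0. The part of monocyte gene expression in the CD86 and HAVCR2 results was not tested.

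Over the 26 group means of a line, CD86 and HAVCR2 correlated at r = 0.64 in MV411, 0.94 in THP1 and 0.85 in NOMO1, and CD80 and HAVCR2 at 0.96 in NOMO1. HAVCR2 and its ligand LGALS9 correlated at -0.12, -0.36 and -0.78 in the same order of lines. These values describe the groups, which share doses, days and DMSO libraries. Among 11881 protein-coding genes tested in every line, those most like CD86 were SLC37A2, a sugar-phosphate exchanger (mean r over the lines of 0.93), SERPINI1, a serine protease inhibitor (0.93), and LPAR6, a lysophosphatidic acid receptor (0.92). Those most like SIRPA were THEMIS2 (0.90), GALC (0.87) and PSTPIP1 (0.87). Those most like LGALS9 were SPN, the leukocyte sialophorin CD43 (0.90), RSBN1L (0.89) and RILPL2 (0.88). CD47 was most like ARF4, TAF13 and the integrin gene ITGB1 (0.84, 0.83 and 0.83), PVR most like YRDC, PDRG1 and C1D (0.83, 0.83 and 0.82), and ICOSLG most like CELF1, HOOK3 and MDM4 (0.68, 0.65 and 0.64).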

How the data were processed

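The authors deposited gene-level FPKM per library, 1 table per cell line, and tables of log2 fold changes against DMSO. Per the submitters' processing notes, Salmon 0.12.0 and DESeq2 were used on build hg38; how FPKM was scaled is not given in the sources used here, but the median ratio of each library to the gene means of its table was 1. The FPKM of a library, in units of 1000, summed to 1312 to 2052 in NOMO1, 1263 to 2325 in THP1 and 1331 to 3073 in MV411, and 0 pairs of libraries were identical. GENCODE 29 matched 56511 of 59939 identifiers (94.3%). The depth estimate rests on 9851 genes that have 1 transcript in the annotation, whose low FPKM values fall on steps of 1 fragment once 150 bases, chosen after the values were seen, are taken off the length; 53.2 to 89.9% of steps were within 0.15 of a whole number, against 30% by chance, at median scales of 72.7, 70.7 and 75.7 M fragments in MV411, THP1 and NOMO1. No counts were used, so counting intervals are not given.

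Each line was fitted with limma 3.58.1 (R 4.3.3) on log2(FPKM + 0.5), with 26 group means, 26 residual degrees of freedom and a variance trend. The genes tested numbered 22007 in MV411, 23226 in THP1 and 20763 in NOMO1, and p-values were adjusted by Benjamini and Hochberg over them. The labels do not say whether replicates were separate cultures. The p-values thus cover the spread between the deposited libraries, which may be technical. In MV411 4 columns, of GSK862 and GSK477 on day 4, share their header with the other column of the group, so their replicate numbers are not known. Same-numbered libraries deviated together with a median correlation of 0.088 in NOMO1, 0.081 in THP1 and 0.08 in MV411 and were not treated as pairs. The correlation was positive for 97.8%, 99.7% and 70.3% of the pairs of groups in the same order of lines. A small shared replicate effect was thus left in the spread of the main fit. The members, the gene lists and the named genes (all members, list members called at 400 nM on day 4 by size, and the 3 genes most like each member with a mean of at least 1 FPKM in every line) were chosen with earlier results of these data known. The authors' fold changes were used for 400 nM on day 4 alone. The fit was tested on simulated data of MV411 alone, with changes put only into well-expressed genes. That simulation does not cover scarce genes such as CD80 and CD274. Some results are not reported here.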

Additional observations from a re-analysis of the deposited data

Results flagged for a closer look

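CD86 lay on opposite sides of DMSO in MV411 and NOMO1 with GSK032 at 400 nM on day 4. In MV411 both GSK032 libraries lay above both DMSO libraries, with a log2 change of 1.66, and in NOMO1 both lay below them, with a log2 change of -0.29 that was not called. The difference between the lines was not tested, because their tables were fitted apart.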

How the results depend on the processing

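Of 1102 alternative values for called changes of single members, 1059 kept their direction and call, 43 kept the direction but not the call (23 on leaving out a library, 15 with a pseudocount of 1 and 5 with equal column sums), and 0 reversed. Of 148 alternative counts of called members, 140 stayed within 1.5 times. With a pseudocount of 0.1 the count was 1 for GSK862 on day 4 in MV411, 2 for GSK862 in THP1 and 2 for GSK032 at 400 nM in THP1, in place of 0 in each. With equal column sums it was 1 for GSK862 in MV411 and 1 in place of 2 for GSK032 minus DAC in THP1. With a minimum of 5 FPKM it was 1 in place of 2 both for DAC and for GSK032 minus DAC in THP1, since a gene drops out of the test. Leaving out a library gave 0 to 1 for GSK862 in MV411. Median-of-ratios rescaling is no check here and is left out of these counts, since its factor was 1 for every library.

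With the replicate number as a block, the counts were the same: 0 for GSK032 and 3 for DAC in NOMO1, 0 and 2 in THP1, and 1 and 1 in MV411 at 400 nM on day 4. No block was fitted for GSK862 and GSK477 on day 4 in MV411, whose columns share a header. Equal column sums moved the median gene by 0.25 for GSK032 in MV411, by -0.31 for DAC in THP1, and by 0.34 in MV411 and 0.27 in THP1 for GSK032 minus DAC, and the split of genes called higher and lower became 2248 and 256, 1007 and 1540, 614 and 199, and 831 and 452, against 1442 and 607, 1446 and 449, 150 and 271, and 358 and 694 as deposited. Groups of 2 libraries and low levels limit the calls of CD274, PDCD1LG2 and CD80.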
